A study of Mus musculus with 12 samples.

Results

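The comparison described here is the effect of RORγt deficiency that migrating and non-migrating wound-edge keratinocytes of the mouse share. All 6 libraries from RORγt-deficient mice, which the sample titles name GFP-KI, were set against all 6 from wild-type (WT) mice in 1 model, with A5 status and replicate number as covariates. Of 16677 genes tested, 2198 (13.2%) passed an adjusted p of 0.05, and 2196 of these had the same sign in both fractions. These 2196 genes are the members described here: 1250 were higher and 946 lower in the deficient mice.

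Skin was taken on day 3 after wounding as a ring 0.25 mm wide next to the wound edge. For each group and sequencing run, 2 or 3 mice were pooled, so a library stands for a pool and not for 1 animal. Live Epcam+ integrin alpha6+ cells were sorted without CD45+, CD31+ or CD117+ cells, and integrin alpha5 split them into A5-POS cells (the migrating tongue, as the labels call it) and A5-NEG cells (the wound edge). Each combination of genotype and A5 status had 3 libraries, numbered 1 to 3, with 29293687 to 74563616 counts each. The labels give neither the strain, age or sex of the mice nor whether the wild-type mice were littermates, so the genotype and any difference in background cannot be told apart. The libraries carried keratinocyte transcripts in both genotypes, with medians of 14534 and 13916 CPM (counts scaled to a common library total) for the basal keratin gene Krt5 and of 656 and 758 CPM for Epcam in wild type and deficient mice, and Ptprc, which encodes CD45, at medians of 4.01 and 6.21 CPM. Wild-type A5-NEG library 1 stood apart in summed markers of Langerhans and dendritic cells, at 4141 CPM against 342 to 1328 CPM in the other 11, and without it 2015 genes were called. Counts of Ddx3y, Eif2s3y, Kdm5d and Uty, which lie on the Y chromosome, were 0 in all 12 libraries.

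RORγt is the transcription factor that lymphocytes need to make interleukin 17 (IL-17). IL-17 binds a receptor made of the Il17ra and Il17rc products on keratinocytes and, through the adaptor encoded by Traf3ip2, turns on NF-κB and a set of chemokines, antimicrobial peptides and stress keratins. The series addresses how IL-17 shapes the response of injured epithelium to low oxygen, in which the factor HIF1α raises glycolytic genes. The sorted cells are taken as the receiving side of this signal, since CD45+ cells, which include lymphocytes, were sorted out. A few T cell transcripts remained. Cd3e was at 63 counts in wild-type and 29 counts in deficient A5-NEG library 1, and at 0 to 4 counts in the other libraries.

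The shared effect was broad and mostly small. The 1252 called genes that were higher made up 7.51% of those tested and the 946 that were lower made up 5.67%. Changes are log2 fold changes, deficient minus wild type, given with a standard error (SE) as ±. The median log2 change of the higher and of the lower genes was 0.48 and -0.41, against 0.01 over all tested genes. Only 120 called genes rose and 66 fell by more than 1 on the log2 scale. In 1867 of the 2198 called genes (84.9%) all 6 pairs of libraries with one number and fraction moved the same way, which was so for 20.9% of all tested genes. The calls were made from these same pairs, so this agreement is partly fixed by the selection and is a description only. The same holds for the shared sign in both fractions. The 6 libraries of one genotype lay wholly above the 6 of the other for 172 tested genes (1.03%), of which 135 were called. Median changes among called genes were 0.45 in A5-NEG and 0.52 in A5-POS cells for the higher genes, and -0.35 and -0.46 for the lower ones. For no gene did the genotype effect differ between the fractions at an adjusted p of 0.05 in edgeR, with 906 at an unadjusted p below 0.05. DESeq2 called 25 such genes.

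**Figure D1:**
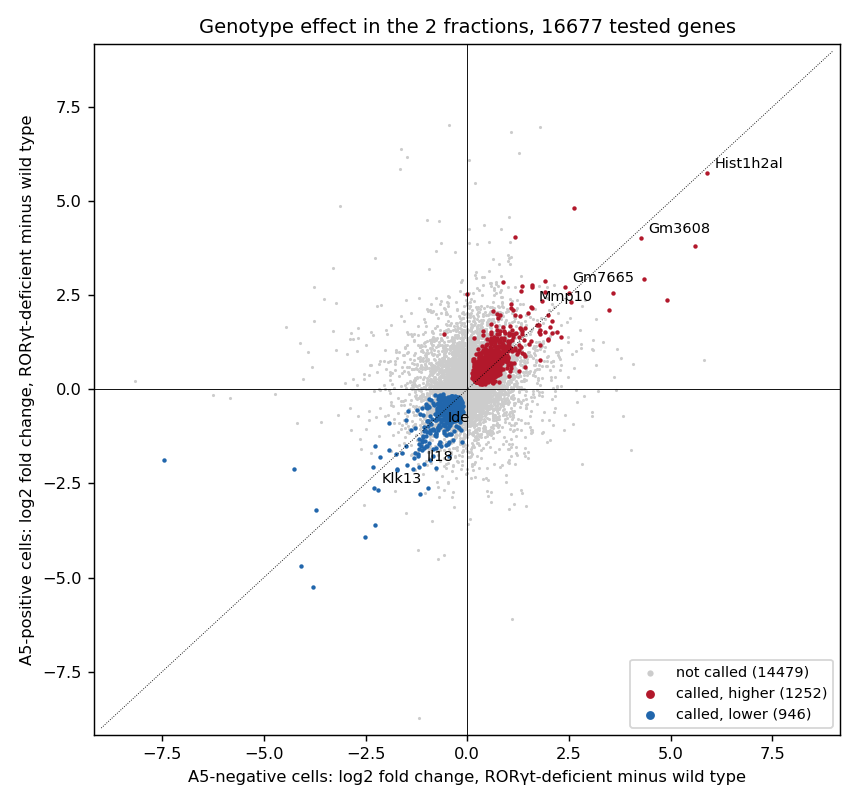
Each point is 1 of the 16677 tested genes, with its log2 fold change (RORγt-deficient minus wild type) in A5-negative cells on the x axis and in A5-positive cells on the y axis. The 1252 genes called higher (red) and the 946 called lower (blue) lie along the diagonal, and Gm3608 and Hist1h2al lie far out at the upper right.

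The number of calls depended strongly on how the pools were treated. The 2 fractions of a genotype and number are taken to come from 1 pool of mice and are not independent, so these p-values are too small if pools differ. With the counts of both fractions summed, 6 pools and 2 residual degrees of freedom, 529 genes (3.17%) were called. Of these, 369 (2.21% of those tested) were higher and 160 (0.959%) lower, and 414 of the 529 were among the 2198. Raw counts were summed, so the fraction sequenced deeper weighed more in its pool. In number 1 that was A5-NEG in deficient mice (74563616 against 52783580 counts) and A5-POS in wild type (57391411 against 51694159 counts). Without the replicate number 12 genes (0.072%) were called, and without the 4 libraries of number 2 only 13 were. With a score for long against short transcripts as a covariate, chosen after seeing the data, 11 were called. With the mean of the immediate early genes as a covariate, also chosen after seeing the data, 1 was called. The gene lists below held 75 calls for higher and 62 for lower members. These became 22 and 16 with pool sums, and 0 and 2 without number 2, so the list counts below rest on the replicate block and on the libraries of number 2. The share called also rose with expression level. It was 2.28% at a mean log2 CPM of 1 or less, 20.4% from 5 to 7 and 31% above 7, against 13.2% over all tested genes. The list counts below are not adjusted for level, and whether a list exceeds genes of like level was not tested.

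Under all 4 of the settings without the replicate number, without number 2, with the length score and with pool sums, 7 genes were called. This set was chosen after the data were seen: Klk13, Ide, Capza1, Gm3608, Gm7665, Hist1h2al and 4930481B07Rik.

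Klk13, which encodes a kallikrein protease of the upper epidermis, fell most among the genes named by rule. In A5-NEG libraries 1 to 3 it was at 3.96, 4.15 and 3.45 CPM (here and below scaled by TMM factors) in wild type and at 0.869, 0.573 and 1.02 in deficient mice. In A5-POS cells it was at 29.7, 14.5 and 16.4 in wild type and at 5.23, 2.41 and 2.22 in deficient mice. Every deficient library lay below every wild-type library of its fraction, and the change was -2.48 ± 0.20 (adjusted p = 0.000228). It was -2.28 in A5-NEG and -2.63 in A5-POS cells.

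Ide encodes insulin-degrading enzyme. It was at 330, 371 and 509 CPM in wild-type and 219, 238 and 298 CPM in deficient A5-NEG libraries. In A5-POS cells it was at 419, 391 and 563 CPM in wild type and at 216, 214 and 246 CPM in deficient mice. The 2 genotypes did not overlap over all 12 libraries, and the change was -0.84 ± 0.08 (adjusted p = 0.00079). Ide is on a list of genes known to vary among C57BL/6 stocks, 5 of whose 9 members were tested. Fgfbp3, which lies near it on chromosome 19, also fell (-1.36 ± 0.19, adjusted p = 0.00382), and the other tested members were not called. Whether the difference in Ide and Fgfbp3 follows the stock or the deletion cannot be told apart here.

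**Figure D2:**
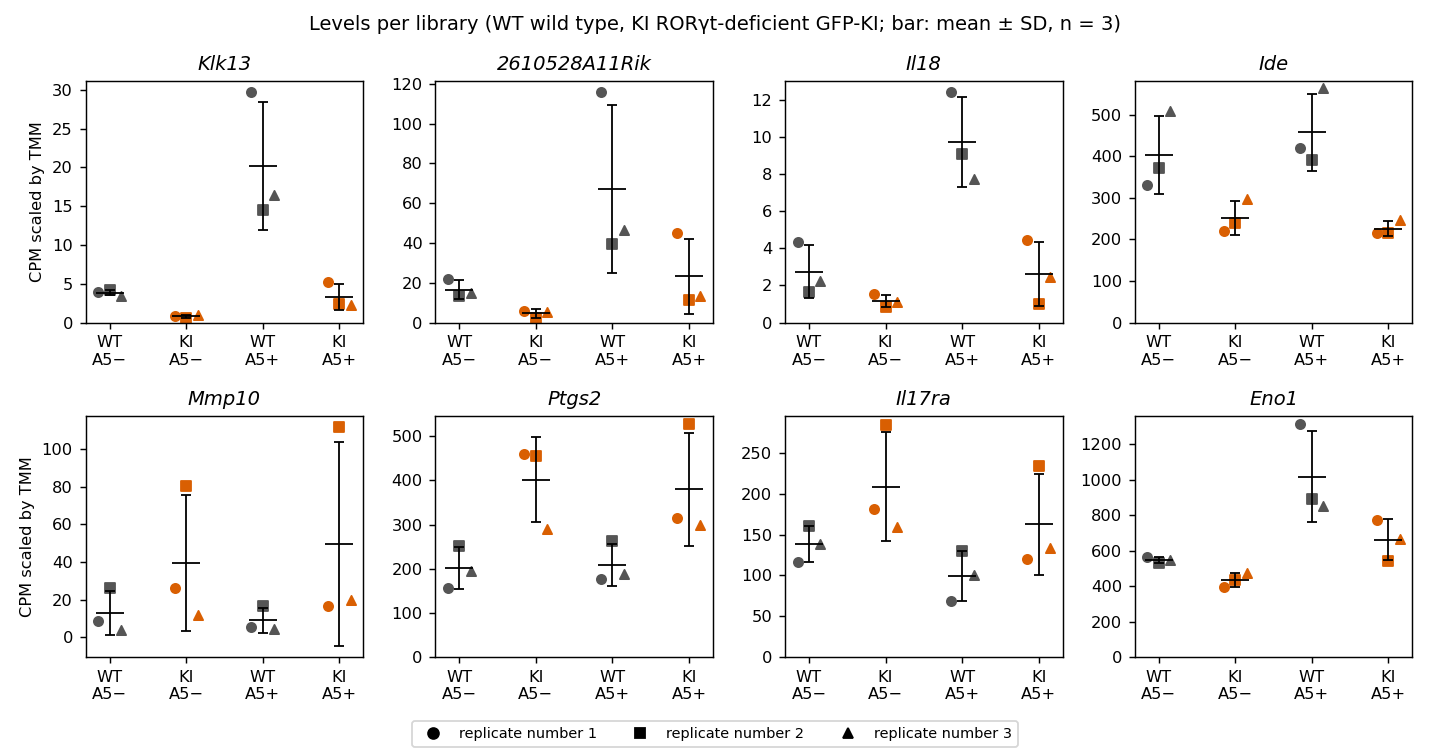
Levels of 8 genes in each library in CPM scaled by TMM (y axis) for the 4 groups (x axis), with symbols for the replicate number and bars for the mean ± SD of 3 libraries. Klk13, 2610528A11Rik and Il18 were lower in the deficient libraries of both fractions, while Ptgs2 was higher in all of them, and Mmp10 and Il17ra were highest in number 2.

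Of 24 tested genes of the IL-17 receptor and its signalling, 10 rose and 1 fell, with a median change of 0.24. Il17ra, the shared receptor chain, was between 68.2 and 160 CPM in wild type (median 123) and between 120 and 284 CPM in deficient mice (median 170). It was higher in all 6 pairs and rose by 0.63 ± 0.10 (adjusted p = 0.00534). Il17rc, the partner chain, went the other way, from a median of 483 to 365 CPM (-0.39 ± 0.10, adjusted p = 0.0248). Downstream of the receptor, the adaptor Traf3ip2 rose by 0.33 and Traf6 by 0.32, and the NF-κB subunits Nfkb1 and Rela rose by 0.46 and 0.53. Tnfaip3, which encodes the NF-κB inhibitor A20, rose by 0.68, and Arid5a, which stabilises inflammatory mRNAs, rose by 0.78. With pool sums 2 of the 24 rose and none fell.

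Of 28 tested genes that IL-17 induces in keratinocytes, 4 rose and 1 fell, and 23 were not called. Pool sums called 5 of the 28 higher and 2 lower. Ptgs2, which encodes the prostaglandin synthase COX-2, was between 157 and 264 CPM in wild type and between 290 and 527 CPM in deficient mice. The genotypes did not overlap, and Ptgs2 rose by 0.92 ± 0.11 (adjusted p = 0.00246). The cytokine Il6 rose by 0.79, Nfkbiz by 0.50 and Tnip3 by 1.26, the last 2 being regulators of NF-κB. S100a8, an antimicrobial calgranulin chain that neutrophils also make, fell by 1.87 but stood at a median of only 2.16 CPM in wild type and 0.433 CPM in deficient mice.

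Cytokines and chemokines rose in 9 of 29 tested and fell in 1, with a median of 0.38. Pool sums called 4 of the 29 higher and 1 lower. Il1a, an alarmin of keratinocytes, rose by 0.85, its antagonist Il1rn by 0.63 and Tnf by 0.57. Il23a, the p19 chain of IL-23, which sustains IL-17-producing lymphocytes, rose by 0.83 from a median of 2.07 to 4.13 CPM. Il18, a cytokine of the IL-1 family, was the member that fell: it was at 4.36, 1.67 and 2.23 CPM in wild-type and at 1.52, 0.859 and 1.11 CPM in deficient A5-NEG libraries. In A5-POS cells Il18 was at 12.4, 9.1 and 7.71 CPM in wild type and at 4.43, 1.0 and 2.46 CPM in deficient mice. It was lower in all 6 pairs (-1.63 ± 0.24, adjusted p = 0.00474). Il18rap, which encodes a chain of the IL-18 receptor, rose by 1.61 ± 0.26 (adjusted p = 0.00563) from a median of 1.33 to 3.81 CPM.

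Wound-front genes rose in 10 of 36 tested and fell in none, with a median of 0.31. Pool sums called 8 of the 36 higher and 1 lower. The integrin genes Itga2, Itgav, Itgb1 and Itgb6 rose by 1.08, 0.61, 0.40 and 0.84, and Plaur, the urokinase receptor, rose by 0.92. Itga5, the sort marker, was not called (0.29 ± 0.09, adjusted p = 0.0594). Mmp10 and Mmp3, the stromelysins, were among the largest rises. Mmp10 ran from 4.11 to 26.2 CPM in wild type and from 11.9 to 112 CPM in deficient mice, and rose by 1.87 ± 0.21 (adjusted p = 0.00205). Mmp3 ran from 12.1 to 154 CPM and from 39.8 to 408 CPM, and rose by 1.66 ± 0.32 (adjusted p = 0.0153). Both genes overlapped between genotypes over the numbers, since number 2 was highest in both, and both were higher in all 6 pairs. Fibroblasts also make Mmp3. Summed fibroblast markers were at 1565 to 2247 CPM in wild-type and 778 to 1898 CPM in deficient A5-NEG libraries, and at 6809 to 10370 CPM and 11150 to 18780 CPM in A5-POS libraries. With the mean of those markers as a covariate, 464 genes were called in all and 4 of the 36 wound-front genes rose.

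The 100 bases before the start of Mmp3 and of Mmp10 are shown because these neighbours rose together and each holds 1 match to the AP-1 motif TGANTCA, in capitals. They are from RefSeq on GRCm38.p6, chr9:7445722-7445821 and chr9:7502242-7502341, plus strand. The same stretch of Mmp13, a wound-front gene on the same chromosome that was not called, also holds 1 match and is not shown.
Mmp3: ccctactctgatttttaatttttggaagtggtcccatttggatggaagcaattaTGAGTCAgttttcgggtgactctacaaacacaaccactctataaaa
Mmp10: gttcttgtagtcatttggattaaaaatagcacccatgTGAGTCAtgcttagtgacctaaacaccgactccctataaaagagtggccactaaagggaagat
RefSeq promoters from 250 bases before to 50 after the start were matched for 11593 tested genes, and on either strand 7.03% held TGANTCA, against 9.36% of 951 called genes that were higher and 5.99% of 735 that were lower. The hypoxia response core ACGTG was in 28.2% of all, 30.4% of the higher and 29.1% of the lower genes. A match describes the letters and does not show binding.

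Genes of the differentiating epidermis fell in 7 of 23 tested and rose in none, with a median of -0.31. Pool sums called 3 of the 23 lower and none higher. Tgm3, which encodes a transglutaminase that cross-links the cornified envelope, ran from 2.67 to 14.3 CPM in wild type and from 1.52 to 3.27 CPM in deficient mice (-1.43 ± 0.32, adjusted p = 0.0163). Tgm1 fell by 0.54, Dsc1, a desmosomal cadherin, by 0.55 and the kallikrein Klk5 by 0.79. Among the other large falls were 2610528A11Rik (-1.76 ± 0.20), Alox8, a lipoxygenase (-1.75 ± 0.24), Sprr2a2 (-1.65), Serpinb3a (-1.50) and Stfa1 (-1.50). Sprr2a2, Serpinb3a and Stfa1 belong to families of near-identical genes, so their reads may be shared among copies. Of basal keratinocyte genes, 3 of 20 rose, with Egfr at 0.36, and 2 fell, with Krt14 at -0.41.

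Among genes of hypoxia and energy metabolism, Hif1a was not called (-0.04 ± 0.10, adjusted p = 0.839), and neither was the glucose transporter gene Slc2a1 (-0.28 ± 0.15, adjusted p = 0.227). Of 9 HIF subunits and oxygen sensors, Arnt, the HIF partner chain, fell by 0.32 and Egln1, a prolyl hydroxylase that marks HIF for decay, by 0.36. Hypoxia-response genes outside glycolysis rose in 5 of 29, with Adm at 0.76 and Vegfa at 0.23, and fell in 2. Glycolytic genes fell in 5 of 22 and rose in 1, Hk2, with a median of -0.28. By fraction, the median of the list was -0.092 in A5-NEG and -0.405 in A5-POS cells. For Slc2a1 the values were 0.0098 and -0.575. Eno1 ran from a median of 707 CPM in wild type to 510 CPM in deficient mice (-0.47 ± 0.11, adjusted p = 0.0205), and Gapdh fell by 0.47. With pool sums 1 glycolytic gene fell and no hypoxia-response gene was called.

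Of 40 genes for oxidative phosphorylation, 11 fell and none rose, and all 40 had values below 0, with a median of -0.26. With the score for long against short transcripts as a covariate their median was -0.07 and none was called. Sdhd, a subunit of complex II, fell by 0.50, and Ndufv2 of complex I by 0.44. Cholesterol synthesis genes fell in 8 of 25, with Mvd at -0.60 and Mvk at -0.51. With pool sums no gene of oxidative phosphorylation and 6 of cholesterol synthesis fell.

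Proliferation genes fell in 14 of 40 tested and rose in none, with a median of -0.39. Plk1, a mitotic kinase, ran from a median of 21.9 CPM in wild type to 10.1 CPM in deficient mice and fell by 0.68. Birc5 fell by 0.58 and the replication licensing gene Mcm5 by 0.55. With pool sums none was called. With the immediate early covariate none was called either, and the median of the list was -0.09.

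Immediate early and heat shock genes rose in 14 of 28 tested and fell in none, with a median of 0.31. None of the 28 was called with pool sums. Fosl1, an AP-1 subunit, rose by 0.66, Klf6 by 0.51 and Egr1 by 0.48. Such genes also respond to tissue digestion, and their part in the shared effect was not tested beyond the covariate given above. Stress-response genes of protein folding and amino acid supply rose in 9 of 28 and fell in 3, and with pool sums 2 rose. Chac1, which degrades glutathione, rose by 1.35 and Ppp1r15a by 0.79, while the serine synthesis genes Phgdh and Psat1 fell by 0.39 and 0.29. Of AKT, ERK and mTORC1 genes 4 of 30 rose and 3 fell, of hair follicle genes 3 of 16 rose, and of interferon-response genes 1 of 30, Usp18, rose.

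**Figure D3:**
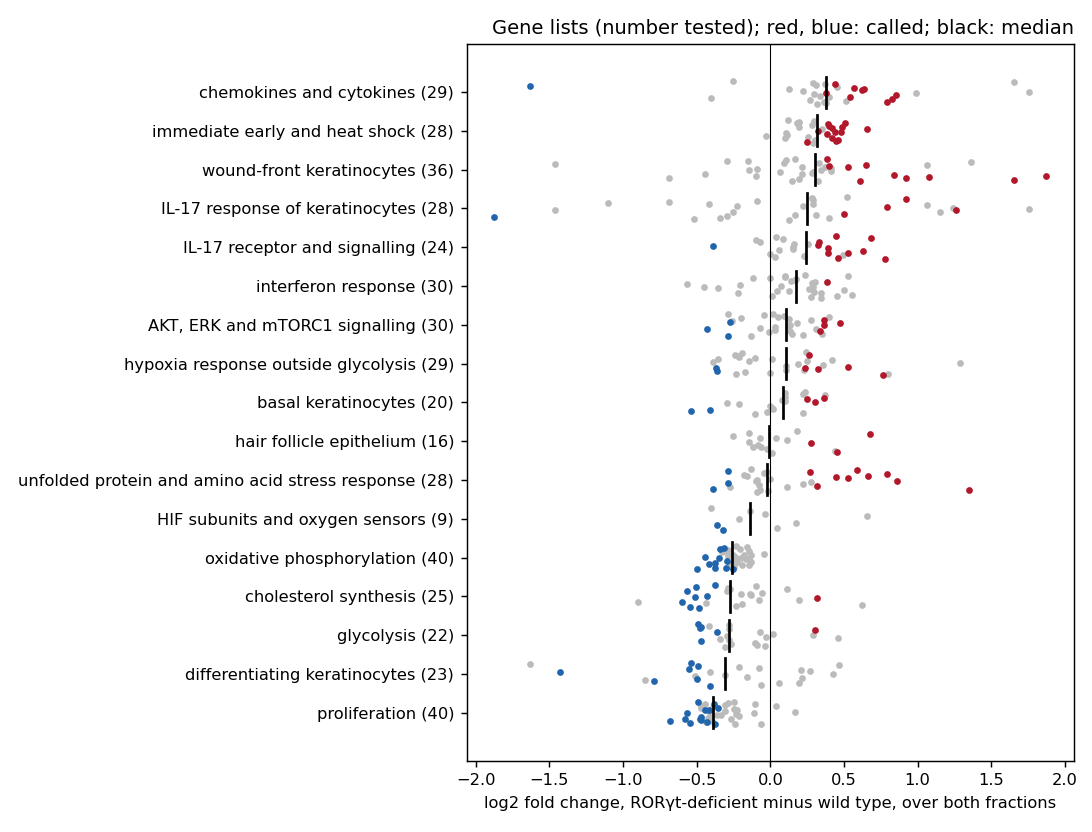
Each point is a tested member of 1 of the 17 pathway or keratinocyte lists with at least 9 tested members, placed by its log2 fold change (x axis, RORγt-deficient minus wild type over both fractions) in the row of its list (y axis). Called members are red or blue and the black bar is the list's median, which over these 17 lists ran from -0.39 for proliferation to 0.38 for chemokines and cytokines.

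Among markers of other cell types, none of 20 for macrophages and monocytes and none of 9 for endothelial cells was called, and of 9 T cell markers Trbc2 fell. Of 6 neutrophil markers 2 fell, S100a8 by 1.87 and the chemokine receptor gene Cxcr2 by 1.08 (adjusted p = 0.0122), and both were also called with pool sums. Of 12 markers of Langerhans and dendritic cells, Zbtb46 rose by 0.55. It was the only 1 of the 12 with a value above 0, and the list's median was -0.34. Summed neutrophil markers were at 11.6 to 26.5 CPM in wild type and 6.12 to 22.9 CPM in deficient mice, and summed T cell markers at 24.4 to 46.0 and 25.1 to 35.5 CPM. Summed macrophage and monocyte markers were at 8441 to 15670 CPM in wild type and 8154 to 11490 CPM in deficient mice, most of it from Apoe (8302 to 12997 and 8133 to 11181 CPM), which keratinocytes also express. The part of these cells in the shared effect was not tested beyond the covariates for fibroblast and macrophage markers. Of 17 fibroblast markers Pdgfra rose by 1.0 and Fbln1 fell by 0.70, and with pool sums 11 rose. The median of the list was 0.73 over both fractions, but 0.132 in A5-NEG and 1.07 in A5-POS cells. Xist, expressed from the inactive X chromosome, rose by 0.61 ± 0.09 (adjusted p = 0.00522).

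Some genes separated the 12 libraries by genotype with no overlap. Hist2h2be, a histone H2B gene at chr3:96221119-96223738, ran from 2.62 to 4.66 CPM in wild type and from 0.43 to 1.20 CPM in deficient mice (-1.97 ± 0.23, adjusted p = 0.0021). Mab21l3 ran from 18.6 to 23.3 CPM and from 6.34 to 12.9 CPM (-1.06 ± 0.13, adjusted p = 0.00246). The transcript 4930481B07Rik rose by 2.53 ± 0.22 (adjusted p = 0.000288).

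Several of the largest rises were in pseudogenes with a near-identical coding gene, a match looked for after the values were seen. Gm3608 on chromosome 1 is 99.5% identical over the 858 coding bases of Capza1, an actin-capping protein gene at chr3:104822779-104864505. Gm3608 was at 1.40 to 1.65 CPM in wild type and at 24.2 to 30 CPM in deficient mice (4.15 ± 0.11, adjusted p = 4.32e-10). Capza1 went the other way, from 58.3 to 67.3 CPM in wild type and from 20.1 to 39.5 CPM in deficient mice (-1.16 ± 0.12, adjusted p = 0.00079). Their sum was at 59.8 to 68.8 CPM and at 44.6 to 65.6 CPM, and the share that fell on Gm3608 was 2.26% to 2.53% in wild type and 38.2% to 54.9% in deficient mice.

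Coding bases 641 to 760 of Capza1 and the matching stretch of Gm3608 are shown because the stretch holds 2 of the 3 coding bases at which the pair differs, in capitals. Sequence outside the coding part was not compared. Both are from GENCODE M21 transcripts on GRCm38.
Capza1: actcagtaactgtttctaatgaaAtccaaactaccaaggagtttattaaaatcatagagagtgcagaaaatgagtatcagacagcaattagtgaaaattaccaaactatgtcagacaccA
Gm3608: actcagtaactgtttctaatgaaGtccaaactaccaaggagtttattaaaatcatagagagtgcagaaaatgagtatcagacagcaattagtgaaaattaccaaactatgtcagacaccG
The deposited counts cannot say from which of the 2 genes the reads came. Hist1h2al, which is 99.4% identical to Hist2h2aa1 over 339 of its 390 coding bases, had 0 to 2 counts in the wild-type libraries and 29 to 78 counts in the deficient ones. Hist2h2aa1 itself was at 0 counts in all 12 libraries, so no opposite move of the kind seen for Capza1 could be measured. Gm7665 and Gm12854 match S100a11, and Gm7665 rose by 2.55 ± 0.23 (adjusted p = 0.000288). S100a11 itself fell by 0.36 (adjusted p = 0.0481). It was at 206 to 343 CPM in wild type and at 165 to 253 CPM in deficient mice. Gm7665 was at 0.66 to 1.68 CPM and at 4.73 to 7.76 CPM. The share of their sum that fell on Gm7665 was 0.276% to 0.488% in wild type and 2.57% to 3.58% in deficient mice.

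Called genes also differed in transcript length, a property chosen for description after the data were seen. The median longest transcript of protein-coding genes was 3386 bases over all tested, 4417 for those that were higher and 2506 for those that were lower. Of the 3498 genes with the longest transcripts 14.2% were called higher and 1.92% lower, and of the 3503 with the shortest 3.63% and 10.4%. The difference between long and short genes, as mean log2 CPM, was larger in the deficient library of all 6 pairs. It went from 0.492 to 1.11 in A5-NEG number 1, where it moved most, and from 0.447 to 0.458 in A5-POS number 1, where it moved least. Which part of the shared effect goes with transcript length was not tested beyond the covariate given above.

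**Figure D4:**
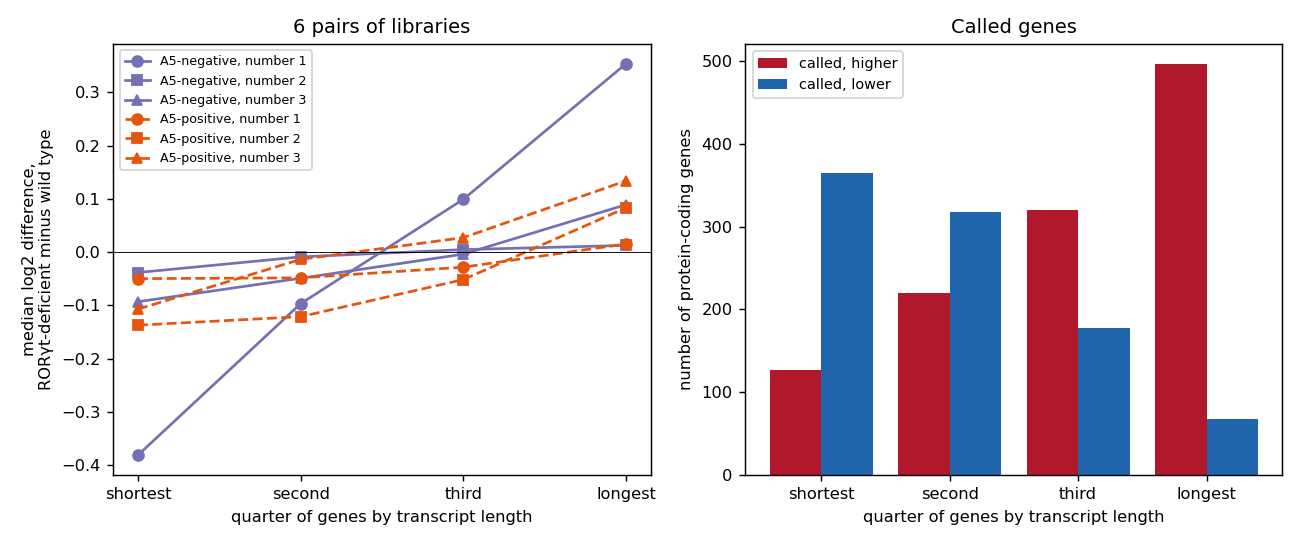
Left, the median log2 difference (y axis, RORγt-deficient minus wild type) of protein-coding genes in 4 classes of transcript length (x axis), with 1 line for each of the 6 pairs of libraries; right, the number of called genes in each class. All 6 lines are higher in the longest than in the shortest class, and A5-negative number 1 is steepest.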

How the data were processed

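Per the labels' protocols, libraries were made with SMART-Seq v4 and ThruPLEX. Per the submitters' processing notes, bcl2fastq, Trimmomatic 0.36, STAR and featureCounts were used with mm10 (GRCm38). How multi-mapped reads and strand were handled is not given in the sources used here. Raw counts per gene symbol were deposited by the authors. Of 55341 rows, 26 whose symbols had become dates (0.11% to 0.128% of counts) were left out. All 55315 others matched GENCODE M21, used for positions.

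Counts were fitted with edgeR 4.0.16 (R 4.3.3, TMM factors, filterByExpr by group, robust quasi-likelihood F test) on A5 status, replicate number and genotype, with Benjamini-Hochberg adjustment over 16677 genes and a threshold of 0.05. Fraction values came from a fit of the 4 groups and the number. The fit takes the 12 libraries of 6 pools as independent (7 residual degrees of freedom, against 2 for pool sums), and the spread between libraries may be partly technical. Intervals from depth would cover counting error only.

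Residuals of all 18 pairs of libraries with one number correlated above 0.1 (0.153 to 0.722, median 0.452, over 9071 genes). The 36 pairs with different numbers ran from -0.63 to 0.315 (median -0.238), so the ranges overlap. The number was used as a block, and the labels do not say what it marks. The members and gene lists were chosen with earlier results of these data known. Named genes were Il17ra, Il17rc, Hif1a, Slc2a1, Itga5, the 12 largest rises and 12 largest falls with mean log2 CPM of at least 1 and 1 sign in all 6 pairs, and 2 members of each list by p; other genes were named after their values were seen. Some items that this rule took are not reported here. Lists had no set test. Copies were matched with blastn 2.17.0. Alternatives used DESeq2 1.42.0 and limma 3.58.1. The fit was tested on simulated data in which libraries varied independently, so that test does not cover the dependence of fractions from 1 pool. A check on the number of changed genes recovered was dropped after its result was seen. The bound on false calls was also set with that result known.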

Additional observations from a re-analysis of the deposited data

How the results depend on the processing

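The count of 2198 called genes, 2196 of the same sign in both fractions, moved by more than 1.5 times under many settings. In fits without the replicate block it was 12 of either kind, and 2 for pool sums. With the block it was 464 of either kind with the fibroblast covariate, 11 with the length covariate, 1 with the immediate early covariate and 529 for pool sums. Without all libraries of number 1, 2 or 3 it was 638, 13 and 1277 of either kind. Pool as a random block in voom gave 3398 and 3334 (its estimated correlation was -0.0782), DESeq2 3428 and 3425, a threshold of 0.01 gave 418 and 418, and 0.1 gave 3741 and 3737. Leaving out 1 library gave 773 (without RORγt-deficient A5-POS number 2) to 2155 genes, and 773 to 2154 of the same sign. It also fell by over 1.5 times without wild-type A5-POS number 2 (843) or number 1 (1200), wild-type A5-NEG number 2 (919) or RORγt-deficient A5-NEG number 1 (1321). Called genes were higher in 57% with all libraries, 71.3% with the fibroblast covariate and 69.8% for pool sums. The interaction was called for 0 genes, for 2 without a filter on low counts and 25 in DESeq2. Nr4a1 reversed to -0.0665 with the immediate early covariate. RLE factors, either filter, the macrophage covariate, voom with quality weights and the 4 groups averaged kept the main count within 1.5 times. The cause of these moves was not tested. Calls shared with the 2198 had the same sign under every setting.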
